A study of Mus musculus with 8 samples.

Results

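The Hox cluster genes of the mouse were followed in J1 embryonic stem cells after knockdown of Fbxl19 and on day 4 of differentiation. Members were taken by symbol: every probe set annotated to a single gene named Hoxa, Hoxb, Hoxc or Hoxd with a number counted, and a gene with several was represented by the one of highest mean. This gave 31 genes of 12394 with a probe set of their own: 9 Hoxa genes on chromosome 6, 9 Hoxb genes on chromosome 11, 6 Hoxc genes on chromosome 15 and 7 Hoxd genes on chromosome 2. RefSeq (GRCm38.p6) lists 39 Hox genes. The remaining 8 were not analysed here.

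Hox genes encode homeodomain transcription factors that give cells of the embryo their position along the body axis. They lie in 4 clusters, and genes of the same paralog number in different clusters descend from a common ancestor. Low paralog numbers lie at the 3′ end of a cluster and are switched on early and in anterior tissues, high numbers later and more posteriorly. In undifferentiated stem cells the clusters are known as silent regions covered by Polycomb repression, and retinoic acid, Wnt and FGF signals open them during differentiation. Fbxl19 encodes an F-box protein whose CXXC zinc finger binds unmethylated CpG dinucleotides, which are dense at many Hox promoters.

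Gene expression was measured on Affymetrix Mouse 430A 2.0 arrays in 4 groups of 2 arrays each. Fbxl19 shRNA1 and Fbxl19 shRNA2 were undifferentiated J1 cells with either of 2 short hairpins against Fbxl19, the third group was J1 cells on day 4 of differentiation, and shControl was undifferentiated J1 cells with a control hairpin. J1 is a mouse embryonic stem cell line, and the labels describe culture on gelatin, with no mention of feeder cells, in serum medium with leukemia inhibitory factor. They state this medium for day 4 as well, and give neither the way of differentiation nor whether those cells carried a hairpin. Separate cultures are not stated for the replicates either, so the spread behind each p-value is that between arrays and may be technical only. Groups follow the titles and source names, which give Fbxl19 as the target of every hairpin, while the description text of some knockdown samples names another Fbxl gene. The array annotation held no probe set for Fbxl19, and its own level was not analysed here.

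Values are on the log2 scale, 1 per probe set, as the authors deposited them. Differences come from a linear model over all 12394 genes with a mean per group (limma), are given with the model's standard error (SE), and count as called where the Benjamini-Hochberg p over all genes is under 0.05. Brightness does not rank one gene's RNA against another's, since probes differ, and a probe set near the lower end of the scale responds less than its RNA changes. The lower quartile of all probe sets was 3.79 on shControl replicate 2 and between 3.84 and 3.90 on the other 7 arrays. The 8 pluripotency markers averaged 11.7 to 11.9 on the 6 undifferentiated arrays and 10.3 and 9.61 on day 4 replicates 1 and 2, and 6 of the 8 were called lower on day 4. The 10 fibroblast markers averaged 4.47 to 4.65 on every array, and 4 of them lay below the lower quartile on all 8. They were not uniformly low: Fn1 had 10.8 to 11.4 on the undifferentiated arrays and 10.2 and 9.09 on day 4. Of the 10, 1 was called higher and 1 lower on day 4, beside 7.67% and 8.73% of all genes.

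Promoter sequence was available for 18 of the 31 genes in 20 windows of 300 bases around RefSeq gene starts (GRCm38.p6). All 20 windows held the motif CG, the site the CXXC domain can bind when unmethylated, against 94.6% of 32851 windows of the same length over all genes. The Hox windows held 4 to 45 CG dinucleotides with a median of 14.5, against a median of 7 over all windows. The windows of 4 genes are printed on their own strand with CG in capitals. Hoxd1 and Hoxb1 are shown because their values on day 4 replicate 2 stood farther above the other 7 arrays than those of any other Hox gene. Hoxa13 and its neighbour Evx1 are shown because they lie beside each other at the 5′ end of the Hoxa cluster and Evx1 was called on day 4 while Hoxa13 was not.
Hoxd1 promoter, chr2:74762730-74763029, plus strand: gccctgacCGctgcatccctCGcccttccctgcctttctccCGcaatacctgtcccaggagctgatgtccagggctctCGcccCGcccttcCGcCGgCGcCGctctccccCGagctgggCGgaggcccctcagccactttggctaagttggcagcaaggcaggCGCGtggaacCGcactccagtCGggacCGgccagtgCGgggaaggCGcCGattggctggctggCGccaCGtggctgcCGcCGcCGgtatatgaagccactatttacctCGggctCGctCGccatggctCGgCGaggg
Hoxb1 promoter, chr11:96365508-96365807, plus strand: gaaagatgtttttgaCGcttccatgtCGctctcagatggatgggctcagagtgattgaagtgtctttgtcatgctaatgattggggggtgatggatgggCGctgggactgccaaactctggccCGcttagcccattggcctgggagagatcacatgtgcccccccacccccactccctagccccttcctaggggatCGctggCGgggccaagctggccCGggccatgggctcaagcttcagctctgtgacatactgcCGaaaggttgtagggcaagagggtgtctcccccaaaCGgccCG
Hoxa13 promoter, chr6:52260831-52261130, minus strand: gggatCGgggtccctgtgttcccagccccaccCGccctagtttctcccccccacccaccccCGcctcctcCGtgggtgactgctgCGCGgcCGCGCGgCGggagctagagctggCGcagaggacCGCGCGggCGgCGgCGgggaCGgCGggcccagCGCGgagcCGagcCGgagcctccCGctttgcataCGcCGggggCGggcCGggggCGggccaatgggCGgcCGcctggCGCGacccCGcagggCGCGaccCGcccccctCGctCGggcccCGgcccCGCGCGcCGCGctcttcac
Evx1 promoter, chr6:52313248-52313547, plus strand: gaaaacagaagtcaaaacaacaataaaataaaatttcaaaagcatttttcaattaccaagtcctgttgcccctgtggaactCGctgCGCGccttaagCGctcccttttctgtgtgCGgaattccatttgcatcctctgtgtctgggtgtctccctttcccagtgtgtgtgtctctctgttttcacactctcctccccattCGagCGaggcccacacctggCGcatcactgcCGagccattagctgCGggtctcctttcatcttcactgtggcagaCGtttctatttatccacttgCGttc
The Hoxd1 window holds 29 CG dinucleotides, and 12.9% of all windows hold as many or more. The Hoxa13 window holds 45 (1.93% of all windows), the Hoxb1 window 10 (43.5%) and the Evx1 window 12 (39.6%). CG is read the same on both strands, and its presence in a window says nothing of methylation or binding.

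Hox probe sets gave low values on these arrays in every condition. Of the 31 genes, 15 (48.4%) lay below the array's lower quartile on all 8 arrays, against 15.6% of all genes and 20 of 88 listed other homeobox genes (22.7%). No Hox gene was above the array median on all 8 arrays, against 6184 of 12394 genes, but Hoxc9 was on 7 and Hoxa7 and Hoxa9 on 6. On all 8 arrays 12 Hox genes were above the lower quartile, against 9265 of 12394 genes. The low genes were spread over all 4 clusters: 4 of 9 Hoxa, 4 of 9 Hoxb, 2 of 6 Hoxc and 5 of 7 Hoxd genes. By paralog number they were 3 of 6 genes of groups 1 to 3, 7 of 12 of groups 4 to 8 and 5 of 13 of groups 9 to 13. The Hox genes also varied little. The range over the 8 arrays had a median of 0.43, against 0.60 for all genes, and exceeded 1 in 2 Hox genes (6.45%), Hoxd1 and Hoxb13, against 20.5% of all genes. Whether the low values narrowed the range was not tested.

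**Figure D1:**
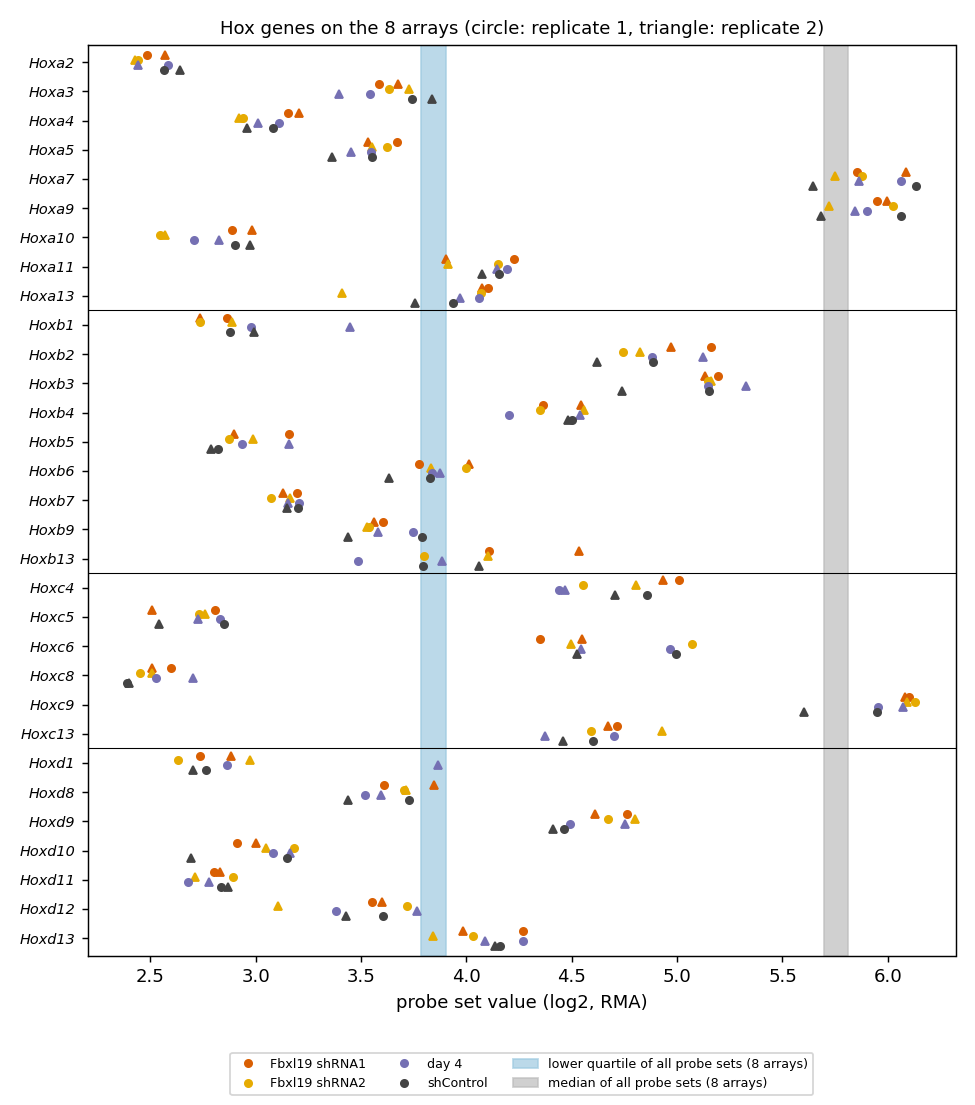
Log2 values (x axis) of the 31 Hox genes (rows, ordered by cluster and paralog number) on the 8 arrays, with colours for the groups, circles for replicate 1 and triangles for replicate 2. The blue and grey bands span the lower quartiles (3.79 to 3.90) and medians (5.70 to 5.81) of the 8 arrays, and 15 genes lie left of their array's lower quartile on all 8.

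The 5 Hox genes with the highest means were Hoxc9 and Hoxa9, which act in the trunk, Hoxa7, which acts in the thoracic skeleton, and Hoxb3 and Hoxb2, which act in the hindbrain. Hoxc9 had 6.10 and 6.08 with shRNA1, 6.13 and 6.09 with shRNA2 and 5.95 and 6.07 on day 4, against 5.95 and 5.60 in shControl. The hairpin arrays lay above both shControl arrays and close to each other, while the shControl arrays lay apart. Hoxa7 had 5.85 and 6.08 with shRNA1, 5.88 and 5.75 with shRNA2 and 6.06 and 5.86 on day 4, against 6.13 and 5.65 in shControl. Hoxa9 had 5.95 and 5.99 with shRNA1, 6.03 and 5.72 with shRNA2 and 5.90 and 5.84 on day 4, against 6.06 and 5.68 in shControl. For both genes the 2 shControl arrays were the highest and the lowest of the 8, so no group stood apart. Hoxb3 had 5.19 and 5.13 with shRNA1, 5.15 and 5.16 with shRNA2 and 5.14 and 5.33 on day 4, against 5.15 and 4.74 in shControl. Hoxb2 had 5.16 and 4.97 with shRNA1, 4.74 and 4.82 with shRNA2 and 4.88 and 5.12 on day 4, against 4.88 and 4.62 in shControl. In all 5 genes shControl replicate 2 was the lowest of the 8 arrays.

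Across all members shControl replicate 2 was the lowest of the 8 arrays for 12 of 31 genes, where the other arrays were lowest for 1 to 5. The median over the Hox genes of the deviation from each gene's own mean was -0.16 on this array, against -0.03 to 0.07 on the other 7. It was -0.08 over the 5766 genes whose means lie within the range of the Hox genes, a set chosen after the values were seen, and 0.03 over all genes. Every comparison with shControl rests on this array, and the medians without it are given with each.

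**Figure D2:**
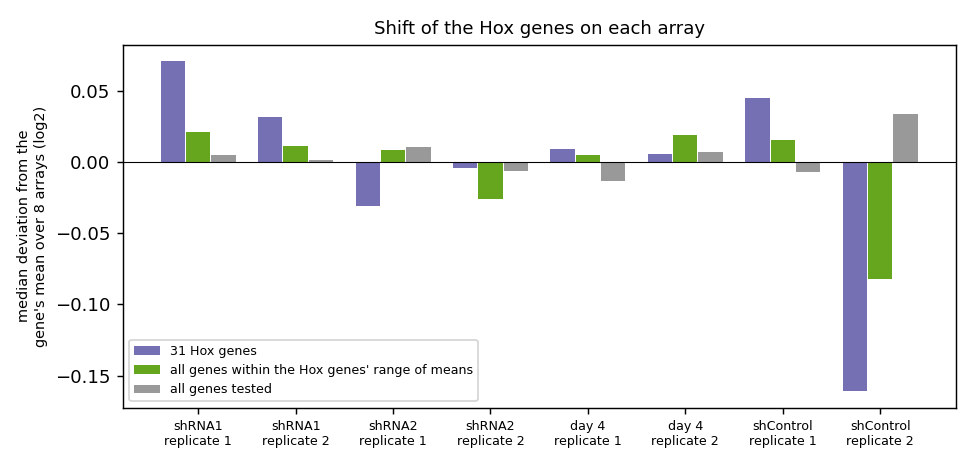
Median deviation of genes from their own mean over the 8 arrays (y axis, log2) on each array (x axis), for the 31 Hox genes, for the 5766 genes within the Hox genes' range of means and for all genes. On shControl replicate 2 the Hox genes stand at -0.16, and the other 7 arrays lie between -0.03 and 0.07.

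The Fbxl19 hairpins were compared with the control hairpin to ask whether Hox genes change with them. How far they reduced Fbxl19 was not measured here. With both hairpins as 1 side, 0 of 31 Hox genes were called by limma, beside 0.0726% of all genes. At an unadjusted p under 0.05 there was 1 Hox gene, Hoxc9, against 8.42% of all genes. Its mean was 6.10 with the hairpins and 5.78 in shControl, a difference of 0.32 ± 0.13 (SE, 4 against 2 arrays) with a limma adjusted p of 0.556. Without shControl replicate 2 the Hoxc9 difference was 0.15. Hoxd9, a gene of limb and lumbar patterning, had 4.76 and 4.61 with shRNA1 and 4.67 and 4.80 with shRNA2, against 4.46 and 4.41 in shControl. All 4 hairpin arrays lay above both controls, with a difference of 0.27 ± 0.12 (SE) and a limma adjusted p of 0.608.

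Hairpin and control arrays did not overlap for 5 of the 31 genes (16.1%), against 20.1% of all genes. The 4 with higher hairpin arrays were Hoxb5, Hoxc8, Hoxc9 and Hoxd9 (against 9.53% of all genes), and the 1 with lower ones was Hoxa3 (against 10.6% of all genes). The median difference over the Hox genes was 0.05, with 19 above 0 and 12 below, beside -0.004 over all genes. It was -0.03 without shControl replicate 2 and 0.12 without replicate 1. The 95% interval of the difference stayed within ±1, a 2-fold change, for 31 of 31 Hox genes, against 97.3% of all genes. These intervals are of probe set values, and over the 31 genes they reached -0.62 on the low side (Hoxc6) and 0.63 on the high side (Hoxd1).

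The hairpins separately gave the same count of calls. With shRNA1, 0 of 31 Hox genes were called, beside 0.242% of all genes, and 0 had an unadjusted p under 0.05, against 9.83% of all genes. Arrays did not overlap for 13 genes (41.9%), against 43.4% of all genes. Of these, 10 were higher with shRNA1 (against 20.4% of all genes) and 3 lower (against 23% of all genes). The median difference was 0.08, and it was 0.000617 without shControl replicate 2 and 0.22 without replicate 1. The largest difference was that of Hoxb13, a posterior gene of the tail and the prostate. Hoxb13 had 4.11 and 4.54 with shRNA1 and 3.80 and 4.10 with shRNA2, against 3.79 and 4.06 in shControl. The difference for shRNA1 was 0.40 ± 0.21 (SE) with a limma adjusted p of 0.588, and it ran between 0.18 and 0.61 when either shRNA1 array was left out.

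With shRNA2, 0 of 31 Hox genes were called, beside 0% of all genes. At an unadjusted p under 0.05 there was 1 Hox gene, against 5.1% of all genes. This was Hoxa10, which acts in the lumbar region and the uterus. Hoxa10 had 2.55 and 2.57 with shRNA2 and 2.89 and 2.98 with shRNA1, against 2.90 and 2.97 in shControl. Both shRNA2 arrays were the lowest of the 8, all of them below the lower quartile, where a probe set follows its RNA least. The difference was -0.38 ± 0.13 (SE, limma adjusted p 0.858) for shRNA2 against shControl and -0.004 for shRNA1 against shControl. Arrays did not overlap between shRNA2 and shControl for 10 Hox genes (32.3%), against 33.1% of all genes. Of these, 5 were higher with shRNA2 (against 15.4% of all genes) and 5 lower (against 17.8% of all genes). The 5 lower ones were Hoxa10, Hoxd13 (-0.21), Hoxa2 (-0.17), Hoxa3 (-0.11) and Hoxa4 (-0.09). Hoxa2, Hoxa4 and Hoxa10 lay below the lower quartile on all 8 arrays and Hoxa3 on 7. The median difference was 0.001, and it was -0.07 without shControl replicate 2 and 0.09 without replicate 1.

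The test of shRNA2 against shRNA1 asks whether the hairpins differ. It called 0 of 31 Hox genes, beside 0.105% of all genes, and 1 gene, Hoxa10, had an unadjusted p under 0.05, against 5.15% of all genes. Its difference was -0.37 ± 0.13 (SE, limma adjusted p 0.693). Hoxc4 had 4.56 and 4.80 with shRNA2 and 5.01 and 4.93 with shRNA1, with no overlap and a difference of -0.29 ± 0.14 (SE, limma adjusted p 1.00). Arrays of the hairpins did not overlap for 10 Hox genes (32.3%), against 43.6% of all genes. Of these, 1 was higher with shRNA2 (against 21.9% of all genes) and 9 lower (against 21.7% of all genes). The median difference was -0.03, with 9 above 0 and 22 below.

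Day 4 cells were compared with shControl to see how the clusters stand early in differentiation. Here 0 of 31 Hox genes were called, beside 16.4% of all genes (7.67% higher and 8.73% lower). At an unadjusted p under 0.05 there were 2 Hox genes, Hoxa3 and Hoxc4, both lower on day 4, against 29.2% of all genes. Arrays did not overlap for 11 Hox genes (35.5%), against 50.4% of all genes. Of these, 7 were higher on day 4 (against 24.1% of all genes) and 4 lower (against 26.3% of all genes). The median difference over the Hox genes was 0.05, with 22 above 0 and 9 below, beside -0.0005 over all genes. Without shControl replicate 2 this median was -0.03, and without replicate 1 it was 0.19. The 95% interval of the difference stayed within ±1 for 30 of 31 Hox genes (96.8%), against 81.1% of all genes. The exception was Hoxd1. In bulk samples, fewer cells expressing a gene and less of its RNA per cell cannot be told apart.

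Hoxd1, a 3′ gene with a role in sensory neurons, had the widest range of any Hox gene. It had 2.86 and 3.87 on day 4, 2.74 and 2.88 with shRNA1 and 2.63 and 2.98 with shRNA2, against 2.76 and 2.70 in shControl. Day 4 replicate 2 stood far above its partner, while replicate 1 lay below the highest shRNA1 and shRNA2 arrays. The difference from shControl was 0.63 ± 0.28 (SE, 95% interval -0.01 to 1.27) with a limma adjusted p of 0.177. All 8 Hoxd1 values, that of day 4 replicate 2 included, lay below their array's lower quartile, where a probe set follows its RNA least. The difference was 1.13 without day 4 replicate 1 and 0.13 without day 4 replicate 2. Either fit holds 1 day 4 array, which is assumed to vary like the other groups, and leaves out the disagreement between the partners.

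Hoxb1, the 3′ gene of its cluster, which sets the identity of a hindbrain segment and is an early target of retinoic acid, showed the same array on top. It had 2.98 and 3.45 on day 4, 2.87 and 2.74 with shRNA1 and 2.73 and 2.89 with shRNA2, against 2.88 and 2.99 in shControl. Replicate 1 of day 4 overlapped the shControl arrays, and replicate 2 was the highest of the 8. The difference was 0.28 ± 0.17 (SE) with a limma adjusted p of 0.336, and it was 0.51 without day 4 replicate 1 and 0.04 without replicate 2. Every one of these arrays lay below its lower quartile for Hoxb1. The day 4 arrays also differed in their markers: replicates 1 and 2 averaged 10.3 and 9.61 over the pluripotency list, 6.07 and 5.44 over 6 trophoblast markers, and 5.13 and 5.34 over 7 primitive streak and mesoderm markers. In the streak list Eomes had 7.87 and 9.21, while Kdr (4.79 and 4.25) and Msgn1 (4.87 and 4.75) were lower on replicate 2. The part of these differences in the Hoxd1 and Hoxb1 values was not tested.

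Hoxa3, which patterns the pharyngeal arches and the thymus, was the Hox gene with the smallest p on day 4. It had 3.54 and 3.39 on day 4, 3.59 and 3.67 with shRNA1 and 3.63 and 3.73 with shRNA2, against 3.74 and 3.83 in shControl. The day 4 arrays were the lowest of the 8, and the difference was -0.32 ± 0.13 (SE) with a limma adjusted p of 0.141. A second Hoxa3 probe set, dimmer on average, had 2.82 and 3.05 on day 4 against 2.83 and 3.04 in shControl, a difference of 0.003. The probe sets of this gene thus did not give the same result. Both gave low values, where a probe set follows its RNA least. The brighter one lay below the lower quartile on 7 of the 8 arrays, and the dimmer one averaged 2.92.

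Hoxc4 had 4.44 and 4.47 on day 4, 5.01 and 4.93 with shRNA1 and 4.56 and 4.80 with shRNA2, against 4.86 and 4.70 in shControl. The day 4 arrays were again the lowest of the 8 and lay close to each other. The difference from shControl was -0.33 ± 0.14 (SE, limma adjusted p 0.162). Against the mean of the 3 undifferentiated groups it was -0.36 ± 0.11 (SE), with a limma adjusted p of 0.0542. In that comparison 0 of 31 Hox genes were called, beside 22.8% of all genes, and Hoxd1 (0.58 ± 0.23, adjusted p 0.109) and Hoxb1 (0.36 ± 0.14, adjusted p 0.104) had the largest upward shifts.

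**Figure D3:**
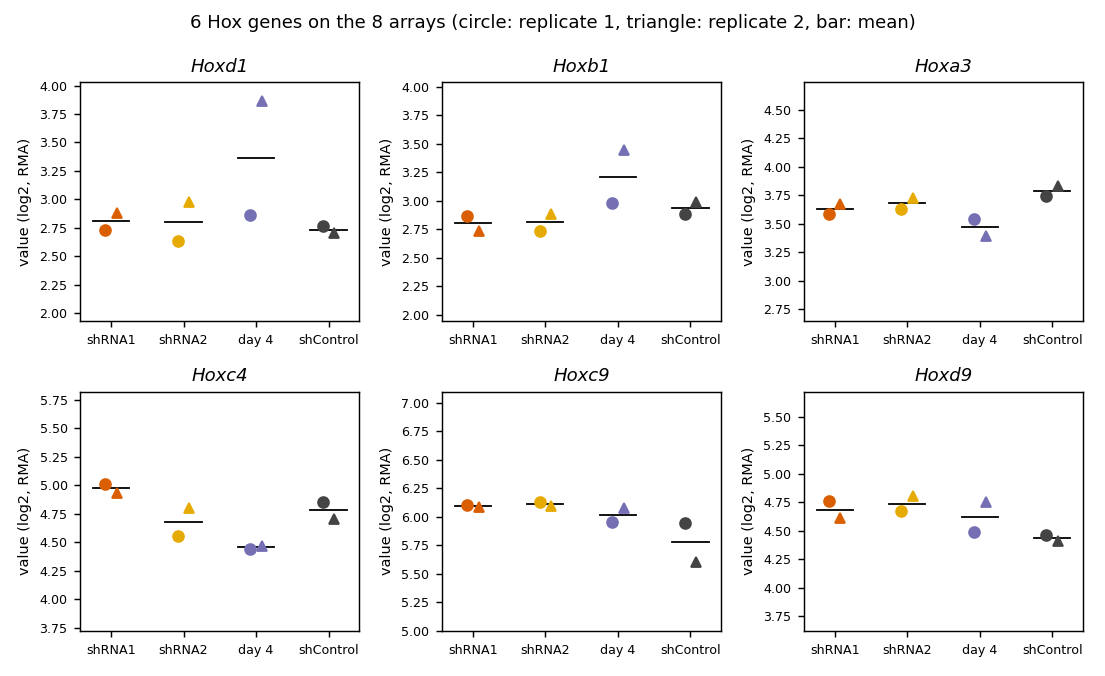
Log2 values (y axis) of Hoxd1, Hoxb1, Hoxa3, Hoxc4, Hoxc9 and Hoxd9 on each array, by group (x axis), with circles for replicate 1, triangles for replicate 2 and bars for the mean of the 2 arrays; each panel covers the same span of log2 values around the gene's mean. Day 4 replicate 2 of Hoxd1, at 3.87, is the point farthest from its partner.

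The remaining day 4 differences were small. Among the genes of highest mean they were 0.24 ± 0.15 for Hoxc9, 0.29 ± 0.16 for Hoxb3, 0.25 ± 0.16 for Hoxb2, 0.07 ± 0.19 for Hoxa7 and 0.0005 ± 0.17 for Hoxa9 (SE, limma adjusted p between 0.279 and 0.998). Without shControl replicate 2 they were 0.07 for Hoxc9, 0.08 for Hoxb3 and 0.12 for Hoxb2, and without replicate 1 they were 0.41, 0.50 and 0.38. Over all 31 genes the differences ran between -0.33 for Hoxc4 and 0.63 for Hoxd1. By cluster the medians were 0.04 for Hoxa, 0.13 for Hoxb, 0.05 for Hoxc and 0.06 for Hoxd. By paralog number the 6 genes of groups 1 to 3 had a median of 0.26, the 12 genes of groups 4 to 8 had 0.04 and the 13 genes of groups 9 to 13 had 0.05. The median of groups 1 to 3 was 0.10 without shControl replicate 2 and 0.09 without day 4 replicate 2, against 0.30 without shControl replicate 1 and 0.38 without day 4 replicate 1. Without shControl replicate 2 the medians of groups 4 to 8 and 9 to 13 were -0.06 and -0.03, and those of the clusters were -0.05 for Hoxa, 0.03 for Hoxb, -0.07 for Hoxc and -0.03 for Hoxd. Within groups 1 to 3 the 6 genes did not move together: Hoxd1, Hoxb1, Hoxb2 and Hoxb3 were above 0, and Hoxa2 and Hoxa3 below. With both hairpins the medians by paralog number were -0.02 for groups 1 to 3, 0.04 for groups 4 to 8 and 0.05 for groups 9 to 13, and -0.03, -0.03 and -0.10 without shControl replicate 2. No test of these groups was made, since their members share the same arrays.

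**Figure D4:**
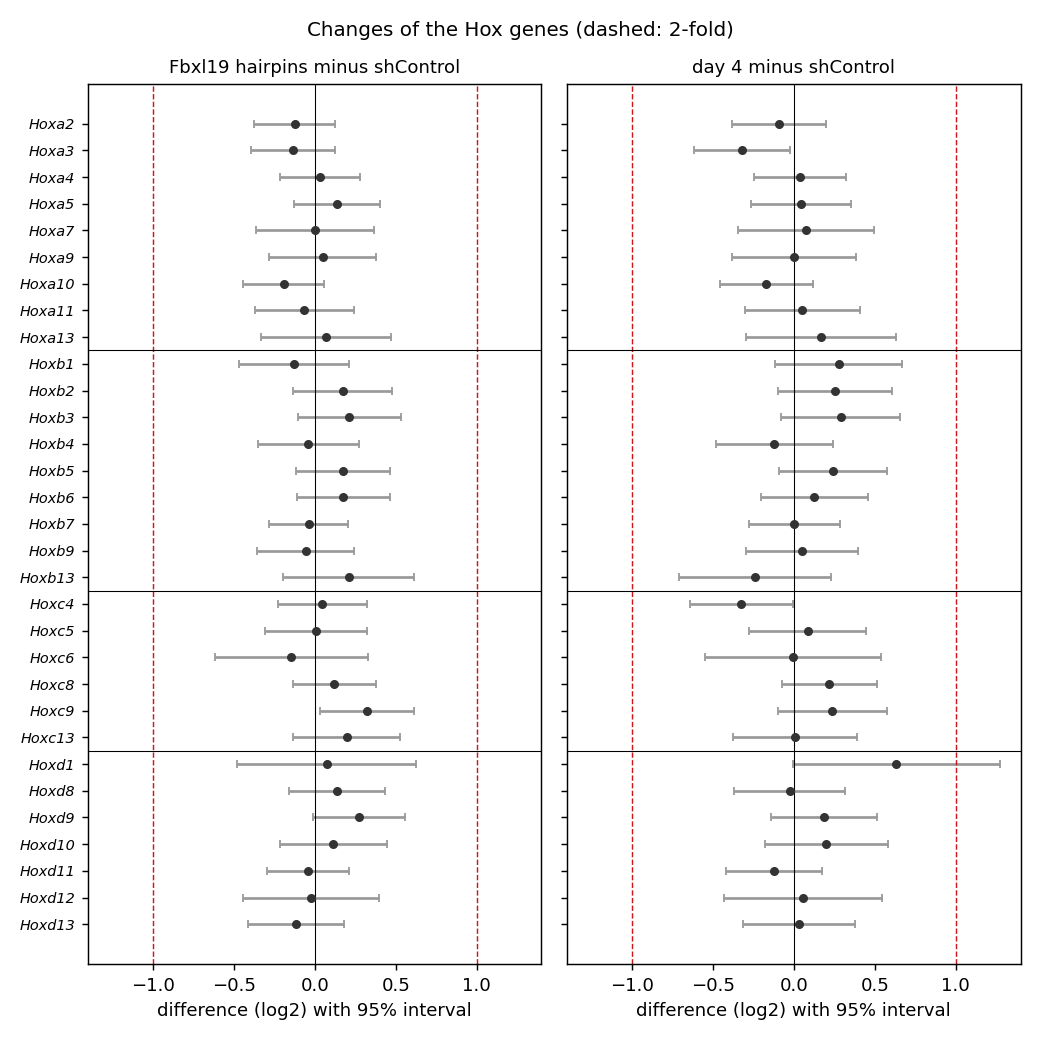
Differences on the log2 scale (x axis) with 95% intervals for the 31 Hox genes (rows), for both Fbxl19 hairpins minus shControl and for day 4 minus shControl; the panels share the shControl arrays, and dashed lines mark a 2-fold change. The interval of Hoxd1 on day 4, up to 1.27, is the only one past a dashed line.

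Several Hox genes had more than 1 probe set, and these differed in level or in direction. Of the 31 genes, 5 (Hoxa3, Hoxa4, Hoxa9, Hoxb4 and Hoxc6) had several. The Hoxa9 probe sets lay far apart, with means over the 8 arrays of 5.90 and 2.80. The dimmer one had 2.96 and 2.88 with shRNA1, 2.96 and 2.97 with shRNA2 and 2.78 and 2.82 on day 4, against 2.39 and 2.65 in shControl. Its shControl arrays were the lowest, with a difference of 0.42 for both hairpins, against 0.05 for the brighter probe set. The 3 Hoxc6 probe sets differed in direction with both hairpins, at -0.14, 0.21 and 0.09. Those of Hoxb4 had means of 4.44 and 3.26, with differences of -0.04 and -0.16 for both hairpins and -0.12 and -0.15 on day 4. Those of Hoxa4 had differences of 0.03 and 0.02 for both hairpins, and of 0.04 and -0.08 on day 4. The smallest limma adjusted p of the dimmer Hoxa9 probe set in any comparison, over all 20393 probe sets, was 0.233. No Hox probe set was called in that fit, beside 14.8% of all probe sets on day 4. Another 3 probe sets were annotated to Hoxd4 and Hoxd3 or to Hoxb8 and Hoxb7 together. They ran between 5.07 and 5.55, 2.92 and 3.17, and 2.53 and 2.93 over the 8 arrays, and cannot be assigned to either gene.

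Genes flanking the clusters were read as neighbours of the Hox genes on the same chromosomes. Of 32 listed flanking genes 25 were measured. These are not all the neighbours: Ttll6 and Skap1 beside the Hoxb cluster and Calcoco1 and Smug1 beside the Hoxc cluster are not among them. Of the 25, 1 rose and 4 fell on day 4, beside 7.67% and 8.73% of all genes. With both hairpins 0 were called, beside 0.0726% of all genes. Evx1, a homeobox gene of the primitive streak next to Hoxa13, rose. It had 5.57 and 6.19 on day 4, 4.18 and 3.88 with shRNA1 and 3.92 and 3.80 with shRNA2, against 4.36 and 4.44 in shControl. Both day 4 arrays lay above all 6 others, with a difference of 1.48 ± 0.20 (SE, limma adjusted p 0.0014), and the call held without any single array. Hoxa13 itself, a gene of the distal limb, had 4.06 and 3.97 on day 4, against 3.93 and 3.76 in shControl, and 3.41 to 4.10 on the hairpin arrays.

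At the other end of the Hoxa cluster Skap2, an adaptor of immune cell signalling, fell. It had 7.47 and 7.11 on day 4, 8.91 and 9.01 with shRNA1 and 8.91 and 8.97 with shRNA2, against 8.67 and 9.01 in shControl, a difference of -1.55 ± 0.17 (SE, limma adjusted p 0.000384). Beside the Hoxb cluster Calcoco2, an autophagy receptor and the second gene beyond Hoxb13, had 5.61 and 6.27 on day 4 against 7.77 and 8.31 in shControl, and fell by 2.10 ± 0.24 (SE, limma adjusted p 0.000531). Day 4 arrays of both genes lay below all undifferentiated arrays. Atp5g1, a subunit of the mitochondrial ATP synthase, fell by 0.67 ± 0.15 (SE, limma adjusted p 0.0157), and Nfe2, an erythroid transcription factor, by 0.66 ± 0.19 (SE, limma adjusted p 0.0499). The Nfe2 call was lost in 6 and that of Atp5g1 in 2 of the 8 fits without 1 array. Evx2, the homeobox gene next to Hoxd13, changed by -0.12 ± 0.16 (SE) and was not called.

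**Figure D5:**
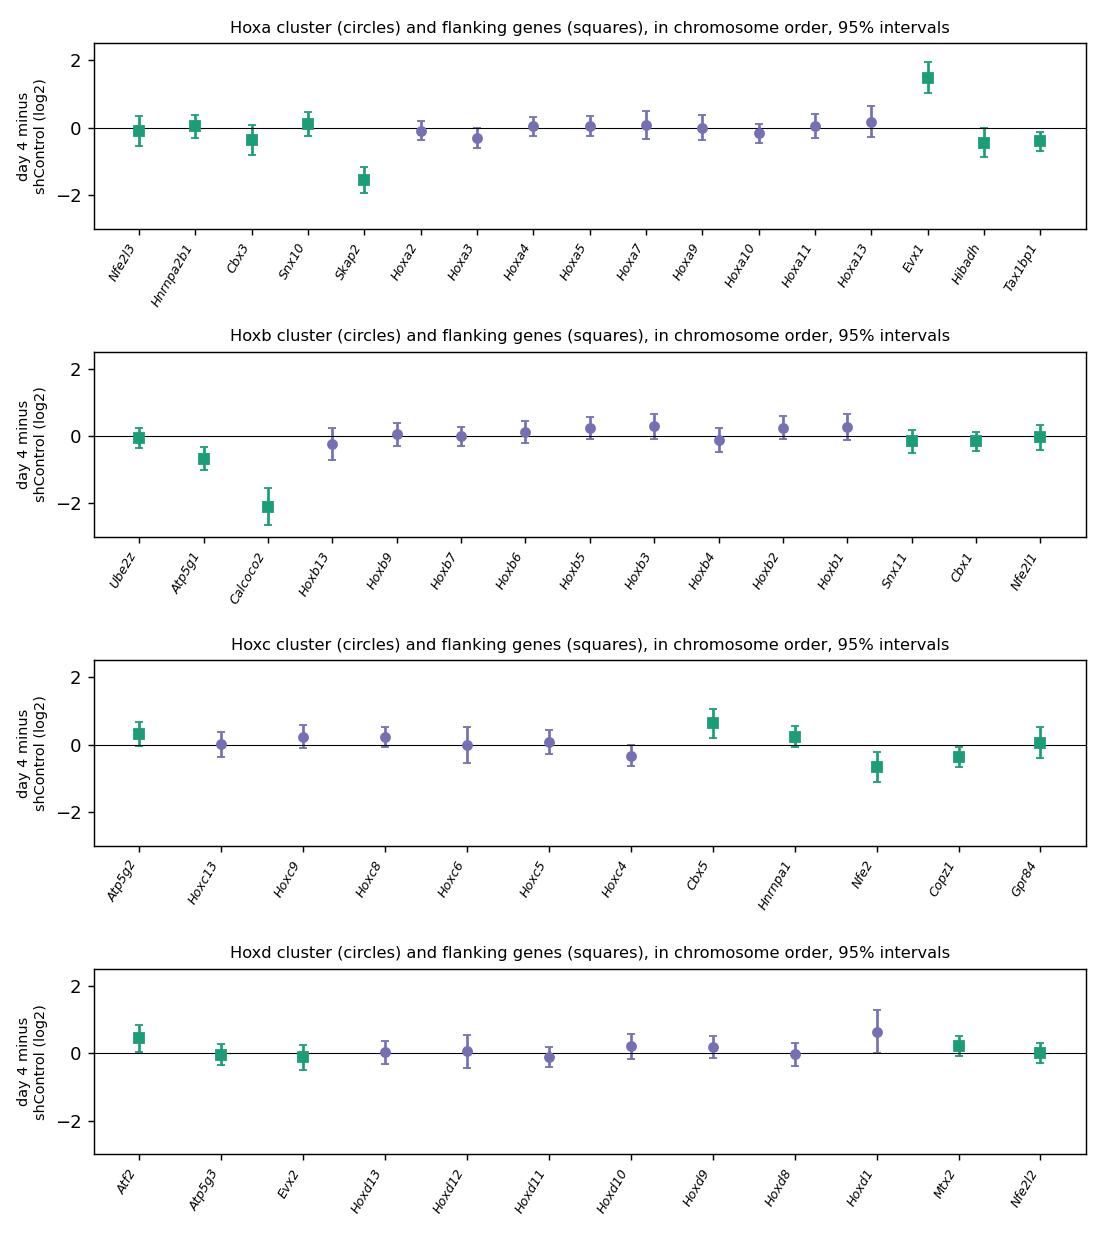
Day 4 minus shControl differences (y axis, log2) with 95% intervals for measured Hox genes (circles) and listed flanking genes (squares) of the 4 clusters, in chromosome order without distances (x axis). Evx1 at 1.48, Skap2 at -1.55 and Calcoco2 at -2.10 lie farthest outside the Hox genes' span of -0.33 to 0.63, and Atp5g1, Nfe2, Hibadh, Tax1bp1, Copz1, Cbx3 and Cbx5 lie outside it by less.

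Of 16 listed RNA genes of the clusters 1 was measured, Hoxa11os, the antisense transcript of Hoxa11. It had 3.06 and 3.14 on day 4, 3.31 and 3.18 with shRNA1 and 3.13 and 3.19 with shRNA2, against 2.97 and 3.12 in shControl. Hoxa11 had 4.19 and 4.14 on day 4, 4.23 and 3.90 with shRNA1 and 4.15 and 3.91 with shRNA2, against 4.15 and 4.07 in shControl. Neither gene was called in any comparison.

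Upstream regulators and partners of Hox genes were counted from lists chosen for their known roles. None of their members was called with both hairpins, beside 0.0726% of all genes. TALE proteins bind DNA together with Hox proteins, and of 8 measured 1 rose and 1 fell on day 4, beside 7.67% and 8.73% of all genes. Pbx3 had 6.31 and 6.96 on day 4 against 5.10 and 5.45 in shControl, and rose by 1.36 ± 0.26 (SE, limma adjusted p 0.0074). Without shControl replicate 1 the Pbx3 difference was 1.18 and not called, with an adjusted p of 0.0637. Meis1, which lay below the lower quartile on all 8 arrays, fell by 0.45 ± 0.13 (SE, limma adjusted p 0.0427). Of the 3 Cdx genes, caudal factors that activate trunk Hox genes, Cdx2 rose by 0.59 ± 0.17 (SE, limma adjusted p 0.0462), with 5.30 and 5.73 on day 4 against 4.84 and 5.02 in shControl. Cdx2 is also a trophoblast gene, and 3 of 6 trophoblast markers, Cdx2 among them, were called higher on day 4, while Tfap2c fell by 1.75 (limma adjusted p 0.011). The calls of Meis1 and Cdx2 were each lost in 7 of the 8 fits without 1 array.

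Genes that make, bind or sense retinoic acid, the signal that switches on 3′ Hox genes, were called in both directions on day 4: of 16 measured, 2 rose and 3 fell, beside 7.67% and 8.73% of all genes. Dhrs3, which returns retinal to retinol, rose by 0.70 ± 0.17 (SE, limma adjusted p 0.0233), and Rdh10, which makes retinal, by 0.75 ± 0.20 (SE, limma adjusted p 0.0304). Crabp1, a binding protein, fell by 1.29 ± 0.31 (SE, limma adjusted p 0.0222), Stra8, a germline target of retinoic acid, by 0.99 ± 0.28 (adjusted p 0.0441), and Rara, a receptor, by 0.43 ± 0.13 (adjusted p 0.0462). Of these calls, without 1 array, that of Rara was lost in 8 of 8 fits, Stra8 in 6, Rdh10 in 3, and Dhrs3 and Crabp1 in 2 each. Crabp2 had 5.78 and 6.82 on day 4 against 4.91 and 5.53 in shControl, a difference of 1.09 ± 0.33 (SE) with a limma adjusted p of 0.0528. It was 1.61 without day 4 replicate 1 and 0.57 without replicate 2. Of 10 genes listed as Trithorax group, chromatin proteins that help keep Hox genes active, 0 rose and 3 fell on day 4, beside 7.67% and 8.73% of all genes. Ash2l fell by 0.85 ± 0.14, Wdr5 by 0.86 ± 0.14 and Dpy30 by 0.64 ± 0.16 (SE, limma adjusted p 0.0032, 0.0033 and 0.0241). The Dpy30 call was lost in 3 of 8 fits without 1 array, and the other two in none. All 3 are core subunits shared by the H3K4 methyltransferase complexes.

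A list of homeobox genes outside the clusters, which is not complete, served as the nearest class for comparison. It holds Evx1 and Evx2, which were also counted as flanking genes. Homeobox genes of the other lists, such as Pbx3, Meis1 and Cdx2, are not in it. Of 105 listed genes 88 were measured, and of these 7, Evx1 among them, rose and 4 fell on day 4, beside 7.67% and 8.73% of all genes. The difference between this class and the Hox genes was not tested. Gbx2, a gene of the midbrain-hindbrain boundary also active in stem cells, had 4.57 and 4.81 on day 4 against 8.78 and 8.84 in shControl, and fell by 4.12 ± 0.16 (SE, limma adjusted p 3.5e-06). Otx2, a forebrain gene also active in primed pluripotency, had 10.4 and 10.6 on day 4 against 8.17 and 8.26 in shControl, and rose by 2.32 ± 0.18 (SE, limma adjusted p 5.8e-05). With shRNA1 the same genes were called, beside 0.242% of all genes. Otx2 was at 1.38 ± 0.18 (limma adjusted p 0.0219) and Gbx2 at -1.17 ± 0.16 (limma adjusted p 0.0276). These calls were lost in 4 of 8 fits without 1 array for Otx2 and in 6 of 8 for Gbx2, with the highest adjusted p at 0.25 and 0.308. With shRNA2 neither gene was called, beside 0% of all genes. Otx2 was at 0.56 ± 0.18 (SE, limma adjusted p 0.818) and Gbx2 at -0.44 ± 0.16 (SE, limma adjusted p 0.896). Neither was called with both hairpins as 1 side (limma adjusted p 0.0918 for Otx2 and 0.115 for Gbx2), beside 0.0726% of all genes. Msx2 and Irx5 also rose on day 4, by 1.47 and 1.21, and Hhex fell by 1.04. The median range over the 8 arrays was 0.43 for Hox genes and 0.49 for this class, and 12.5% of this class had a range over 1, against 6.45% of the Hox genes.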

How the data were processed

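RNA of 8 arrays was processed by the authors, who deposited log2 values, 1 per probe set, made with RMA (background correction, quantile normalization and summary over probes), per the submitters' processing notes. Its version, and whether normalization was joint, are not given here. Of 22690 probe sets, 20393 had 1 gene symbol in the platform annotation, 691 several and 1606 none. Symbols of 20364 were updated by gene identifier through RefSeq (GRCm38.p6), which also gave chromosomes, gene order and promoter windows; the array's own build is not given.

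A mean for each of 4 groups was fitted with limma 3.58.1 in R 4.3.3 (lmFit, eBayes; 4 residual degrees of freedom), and p-values were adjusted by Benjamini-Hochberg over all 12394 genes in each of 5 comparisons. The fit was tested on simulated data. All samples kept the groups of their titles. The number of arrays limits the precision.

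The members, gene lists and tests were chosen with earlier results of these data known. Per-array values were to be given for called Hox genes, for those with group means 1 or more apart (there were none of either kind) and for the 5 with the highest means. Up to 6 genes of each other list, with the smallest p, were to be named. Hoxd1, Hoxb1, Hoxa3, Hoxc4, Hoxd9, Hoxa10, Hoxa11, Hoxa13, Hoxb13, the additional probe sets, Evx2 and the printed promoters were chosen after values were seen. The alternatives tried were: all probe sets; their mean per gene; a fit without the dimmest 30%; a trended, robust eBayes; only the groups compared; weights per array; quantile normalization a second time; median centring; the replicate number as a block; the 3 undifferentiated groups as the day 4 reference; and each array left out.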

Additional observations from a re-analysis of the deposited data

How the results depend on the processing

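Among the alternatives run, 85 of 86 counts of called Hox genes stayed at 0, and 78 of 86 medians moved by less than the spread between replicate arrays (0.075 on the log2 scale). The exception among the counts was day 4 without its replicate 1, with 1 call, Hoxd1, from a fit with a single day 4 array that takes its spread from the other groups; without single arrays that count ran between 0 and 1. Leaving out the dimmest 30% of genes, and with them most Hox genes, gave medians of 0.173 with both hairpins and 0.192 with shRNA1. Without single arrays the median ran between -0.031 and 0.119 with both hairpins, 0.000617 and 0.218 with shRNA1, -0.069 and 0.093 with shRNA2, and -0.032 and 0.191 on day 4, in each case lowest without shControl replicate 2 and highest without replicate 1. Day 4 differences near 0 changed sign: Hoxa9 was -0.033 with the 3 undifferentiated groups as the reference, and without single arrays Hoxa9 ran between -0.19 and 0.19 and Hoxa7 between -0.17 and 0.32. Without day 4 replicate 1 they were -0.029 and -0.028. For the other genes named, each change was read once in each alternative. A call was lost in 87 of these readings, gained in 12, in Cbx5 or Crabp2, and unchanged in 344. The cause was not tested.

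Replicate numbers are shared by all groups. Deviations of same-numbered arrays correlated across genes at 0.50 between the hairpins, 0.26 and 0.23 between either hairpin and shControl, 0.07 between day 4 and shControl, and -0.02 and -0.08 between day 4 and either hairpin. The labels do not say what a number marks, and with 2 numbers and the day 4 values near 0 they were not taken as pairs; the undifferentiated groups alone correlate above 0.1. With the replicate number as a block, 0 Hox genes were called in any comparison, with medians as without it, and 18.6% of all genes were called on day 4. The block called 22 of all genes with both hairpins, 49 with shRNA1 and 8 between the hairpins, against 9, 30 and 13 without it. Over all alternatives that share ran between 8.9% (without shControl replicate 2) and 22.8%, against 16.4%. The precision is limited by 2 arrays a group and by the low signal of the Hox probe sets.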
